A study of Mus musculus with 23 samples.

Results

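Immediate early genes are switched on within minutes of a signal at the cell surface, from transcription factors already present in the cell, and their RNAs are short-lived. The set described here was given by name and not by its values. It comprises 10 genes: Fos, Fosb, Jun, Junb, Jund, Egr1, Atf3, Klf4, Zfp36 and Ier2. All 10 were found among the 55487 genes of the count table, and all 10 passed the filter on low counts that left 17236 genes tested.

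Proteins of the Fos and Jun families pair to form AP-1, a transcription factor that binds TGANTCA sites. Fos, Jun and Egr1 are classic readouts of growth factor, stretch and injury signals that reach the nucleus through the MAP kinases ERK, JNK and p38 and through the serum response factor. In the gut wall such signals can arise in epithelium, muscle, nerve and immune cells, and the way a piece of tissue is taken and cooled can also start them.

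RNA was taken from whole jejunum, the middle part of the small intestine, with fat and Peyer's patches removed, from 23 mouse libraries in 10 groups. Wild-type Cpa3+/+ mice gave 12 libraries and Cpa3Cre/+ mice, which the series calls mast cell-deficient, gave 11. In Cpa3Cre/+ mice 1 copy of Cpa3, the mast cell carboxypeptidase gene, carries Cre recombinase, so the genotypes also differ in Cpa3 dosage, and Cre is made wherever Cpa3 is expressed. Each genotype was sampled in 5 states. Naive mice are labelled untreated (3 Cpa3+/+ and 2 Cpa3Cre/+ libraries). Immunized mice had received 25 µg ovalbumin, the main egg white protein, with 2 mg alum adjuvant intraperitoneally on days 0 and 14 (2 and 2 libraries). Challenged mice had the same injections and from day 20 could drink either plain water or a sweetened egg white drink (20% egg white, 8% sugar), for 1 day (3 and 2 libraries), 3 days (2 and 2) or 5 days (2 and 3). How much each mouse drank, its strain and its age are not given in the sources used here. Whether replicates came from separate animals is not stated. Naive Cpa3+/+ and all Cpa3Cre/+ groups other than day 5 hold both sexes, and their libraries of unlike sex came from different mice. The p-values cover the spread among these libraries, which between libraries of the same sex may be technical. The immunized libraries are the shared controls of the day 1, day 3 and day 5 comparisons.

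Libraries held between 5476308 and 19342046 gene-assigned reads (median 13809248). Female mice gave 18 libraries and male mice 5, with the males in 1 Cpa3+/+ group and 4 Cpa3Cre/+ groups. Cpa3 ranged from 0.827 to 22.1 CPM (reads of a gene scaled to the gene-assigned reads of its library) in Cpa3+/+ libraries and from 0.101 to 1.51 CPM in Cpa3Cre/+ libraries, so the ranges overlapped. The summed level of 8 enterocyte markers ranged from 7400 to 85600 CPM, and none of 4 fat cell markers passed the filter. One naive Cpa3Cre/+ library, replicate 1, stood apart: it had the lowest enterocyte sum and the highest sum of 6 smooth muscle markers, 5720 CPM against 593 to 3670 CPM in the other libraries. Follicle B cell markers, whose sum was 4.1 to 26.5 CPM in 20 libraries, reached 91.2 CPM in immunized Cpa3+/+ replicate 1, 77.1 CPM in immunized Cpa3Cre/+ replicate 2 and 43.5 CPM in day 1 Cpa3Cre/+ replicate 2. In bulk tissue, fewer cells of a type and less RNA per cell cannot be told apart.

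Per kilobase of exon, a scale on which genes can be compared, the highest of the set were Klf4, a zinc finger factor of differentiating epithelium, at a mean of 52.1 CPM per kilobase (SD 21.1 over 23 libraries), and Zfp36, which encodes the RNA-binding protein tristetraprolin that destabilises cytokine RNAs, at 49.9 (SD 14.5). Jund followed at 43.4 (SD 20.5), then Fos at 19.9 (SD 8.48), Junb at 19.6 (SD 13.4), Ier2, a small nuclear regulator, at 17.7 (SD 8.21) and Jun at 12.3 (SD 4.18). Atf3, a stress-induced partner of Jun proteins, followed at 5.37 (SD 2.84) and the zinc finger factor Egr1 at 2.67 (SD 1.18). Fosb was lowest at 0.352 (SD 0.247). Neighbours in this order differed by less than the larger of their SDs, other than Jund and Fos, Jun and Atf3, and Egr1 and Fosb, whose gaps exceeded both SDs. Against all genes tested, Klf4, Zfp36 and Jund lay at the 94th, 93.7th and 92.9th percentile of CPM per kilobase and Fosb at the 12.6th.

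All 10 members spanned a wider range between libraries than the median gene. From the lowest to the highest library, Junb spanned 37.7-fold, Atf3 13.9-fold, Fosb 12.6-fold, Klf4 11.6-fold and Fos 9.99-fold, while the median gene with a mean of at least 1 CPM spanned 3.08-fold. Jund (6.14-fold), Zfp36 (6.09-fold), Ier2 (5.97-fold), Egr1 (4.53-fold) and Jun (4.04-fold) spanned less. The biological coefficient of variation between replicates, as edgeR estimated it, was 53.8% for Fosb, 52.3% for Junb and 42.3% for Atf3, which put them at the 95.7th, 95.2nd and 87.1st percentile of genes tested, against a common value of 28.6%. Jun, at 24.2%, was the steadiest and lay at the 39.5th percentile.

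**Figure D1:**
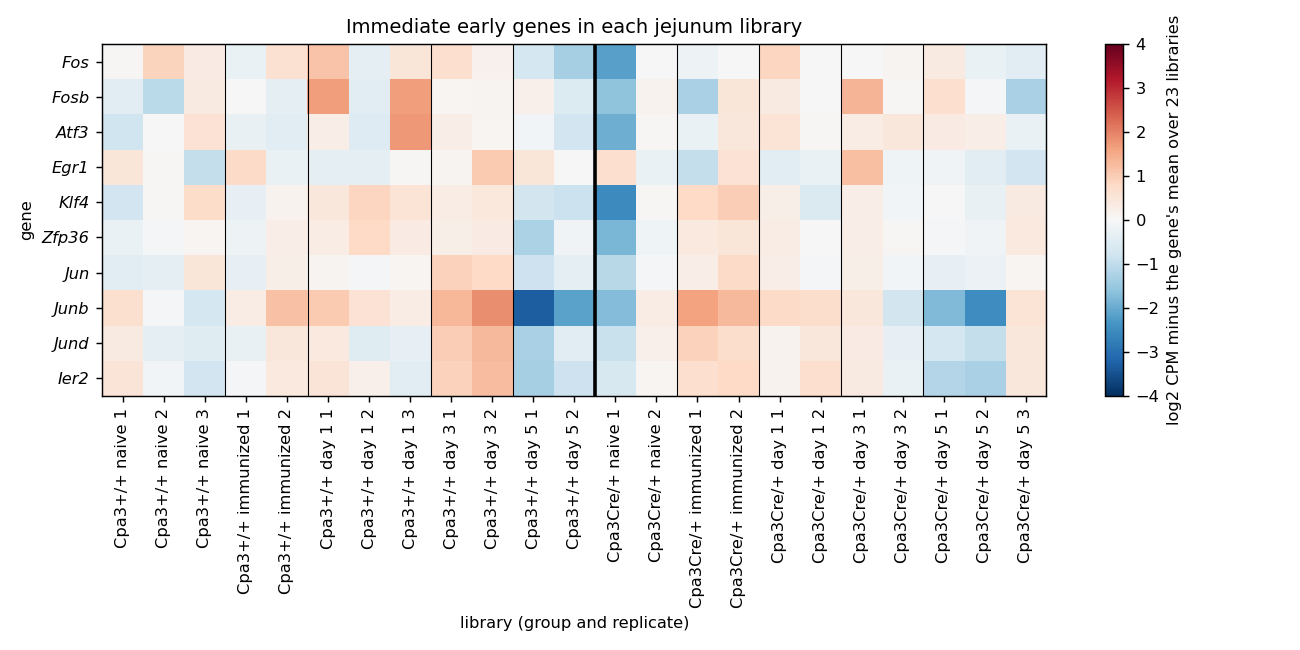
Rows are the 10 genes and columns the 23 libraries, ordered by genotype and state. Colour gives log2 CPM minus the gene's mean over all libraries. The lower 3 rows (Junb, Jund, Ier2) share their blue and red columns, naive Cpa3Cre/+ replicate 1 is blue for all genes other than Egr1, and Egr1 follows none of the others.

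Extremes of the set fell on a few libraries. Naive Cpa3Cre/+ replicate 1 was the lowest of all 23 for 6 members (Fos, Fosb, Jun, Atf3, Klf4 and Zfp36) and had the lowest mean standardised level, -1.89. Day 5 Cpa3+/+ replicate 1 was the lowest for Junb, Jund and Ier2, with a mean standardised level of -1.11. At the other end, day 3 Cpa3+/+ replicate 2 was the highest for those same 3 genes (0.99), and day 1 Cpa3+/+ replicate 1 was the highest for Fos and Fosb (0.67).

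The 10 genes lie on chromosomes 1, 4, 7, 8, 12 and 18. In GRCm38, by GENCODE vM21, Junb (ENSMUSG00000052837) lies at chr8:84974484-84978718 on the minus strand and Jun (ENSMUSG00000052684), a gene with a single exon, at chr4:95049034-95052222 on the minus strand. Fos (ENSMUSG00000021250) has 4 exons at chr12:85473890-85477273 on the plus strand. Ier2 (ENSMUSG00000053560, chr8:84661331-84662852) and Jund (ENSMUSG00000071076, chr8:70698949-70700616) share the chromosome of Junb.

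The promoters of 4 of them are shown because their genes varied in unlike ways: Junb had the widest range, Jun the narrowest, and Fos and Atf3 tended to go together. The RefSeq promoter table (GRCm38.p6) holds 8 of the 10 members. The last 120 bases before the annotated start are printed 5′ to 3′ in the direction of transcription. They are chr8:84978749-84978868 (minus strand) for Junb, chr4:95052223-95052342 (minus strand) for Jun, chr12:85473770-85473889 (plus strand) for Fos and chr1:191183334-191183453 (minus strand) for Atf3. Capitals mark TGACG, the core of the cyclic AMP response element that CREB and ATF proteins bind, on either strand, the longer TGACNTCA, which holds TGACG where N is G, and the TATA box TATAAA.
Junb: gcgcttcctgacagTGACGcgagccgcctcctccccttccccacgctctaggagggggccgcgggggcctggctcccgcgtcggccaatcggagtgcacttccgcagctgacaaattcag
Jun: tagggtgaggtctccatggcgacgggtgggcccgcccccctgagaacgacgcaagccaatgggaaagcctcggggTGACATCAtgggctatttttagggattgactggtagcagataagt
Fos: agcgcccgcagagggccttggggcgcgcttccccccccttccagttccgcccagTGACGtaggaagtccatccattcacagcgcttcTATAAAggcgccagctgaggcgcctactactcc
Atf3: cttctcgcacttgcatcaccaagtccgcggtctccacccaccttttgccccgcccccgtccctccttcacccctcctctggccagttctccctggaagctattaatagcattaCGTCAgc

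In the 250 bases before the start, searched on both strands, TGACG was present in 5 of the 8 members (Fos, Fosb, Junb, Atf3 and Klf4), against 17.8% of the 32851 promoters in the table. These bases were 58.4% (Fos) to 74% (Klf4) GC in those 5 members, against a median of 52.4% over all promoters. The part of base composition in the matches was not tested. The first base of TGACG lay 106 bases before the start in Junb, 129 and 66 in Fos and 60 in Fosb. In Atf3 and Klf4 the match was on the opposite strand, with its upstream end 7 and 232 bases before the start. TGACNTCA was present in Jun alone, 45 bases before the start, against 7.49% of promoters, and TATAAA in Fos alone, 33 bases before the start, against 12.4%. A CArG box, the serum response factor site, was present in Zfp36, 58 bases before the start, against 1.47% of promoters. No member held TGANTCA in this window, against 6.75%. CCAAT was present in Jun and Junb (33.8% of promoters) and GGGCGG in 6 members (32.7%). The printed Atf3 start belongs to a transcript that begins 34706 bases from the start of the longest gene model, and the entries for Jund and Zfp36 lie 1210 and 1025 bases from theirs. A match of letters is a description and shows no binding.

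Junb, an AP-1 subunit and a weaker activator than Jun that can hold Jun-driven transcription in check, was the member that moved most with challenge. Its level in immunized libraries was 39.2 and 72.6 CPM in Cpa3+/+ mice and 99.8 and 78.6 CPM in Cpa3Cre/+ mice. On day 5 of challenge it was 3.14 and 7.28 CPM in Cpa3+/+ mice and 9.45, 5.64 and 46.8 CPM in Cpa3Cre/+ mice. Of the 5 day 5 libraries, 4 lay under every immunized library and were the lowest of all 23. Cpa3Cre/+ replicate 3 lay inside the immunized range, so the groups overlapped.

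Averaged over genotypes, Junb fell by 2.78 on the log2 scale (SE 0.57), a 6.89-fold difference, with an adjusted p of 0.0196 in edgeR's quasi-likelihood test over all 17236 genes. It was the only member called in that comparison, 1 of 10, where 1.94% of all genes tested were called, 1.38% lower and 0.557% higher. Within Cpa3+/+ mice the difference was -3.41 (SE 0.86, adjusted p 0.237), where edgeR called 0% of all genes, and within Cpa3Cre/+ mice -2.16 (SE 0.74, adjusted p 0.334), where it called 0.0348%. DESeq2 called Junb in Cpa3+/+ mice (adjusted p 0.00464), with 1.14% of all genes. The responses of the genotypes differed by 1.25 (SE 1.11, adjusted p 1), which was within error. The averaged call was lost without day 5 Cpa3+/+ replicate 1 (-2.57, adjusted p 0.111) or replicate 2 (-3.17, 0.0585), immunized Cpa3+/+ replicate 2 (-2.56, 0.0776), immunized Cpa3Cre/+ replicate 1 (-2.69, 0.0643) or replicate 2 (-2.94, 0.0645). It was also lost without the 3 libraries highest in follicle markers (-3.15, 0.114), 2 of which are immunized. Without day 5 Cpa3Cre/+ replicate 3 it was -3.52 (adjusted p 0.000707), and Ier2 (-1.65, 0.00242) and Jund (-1.28, 0.0142) were then called as well, with 7.63% of all genes.

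**Figure D2:**
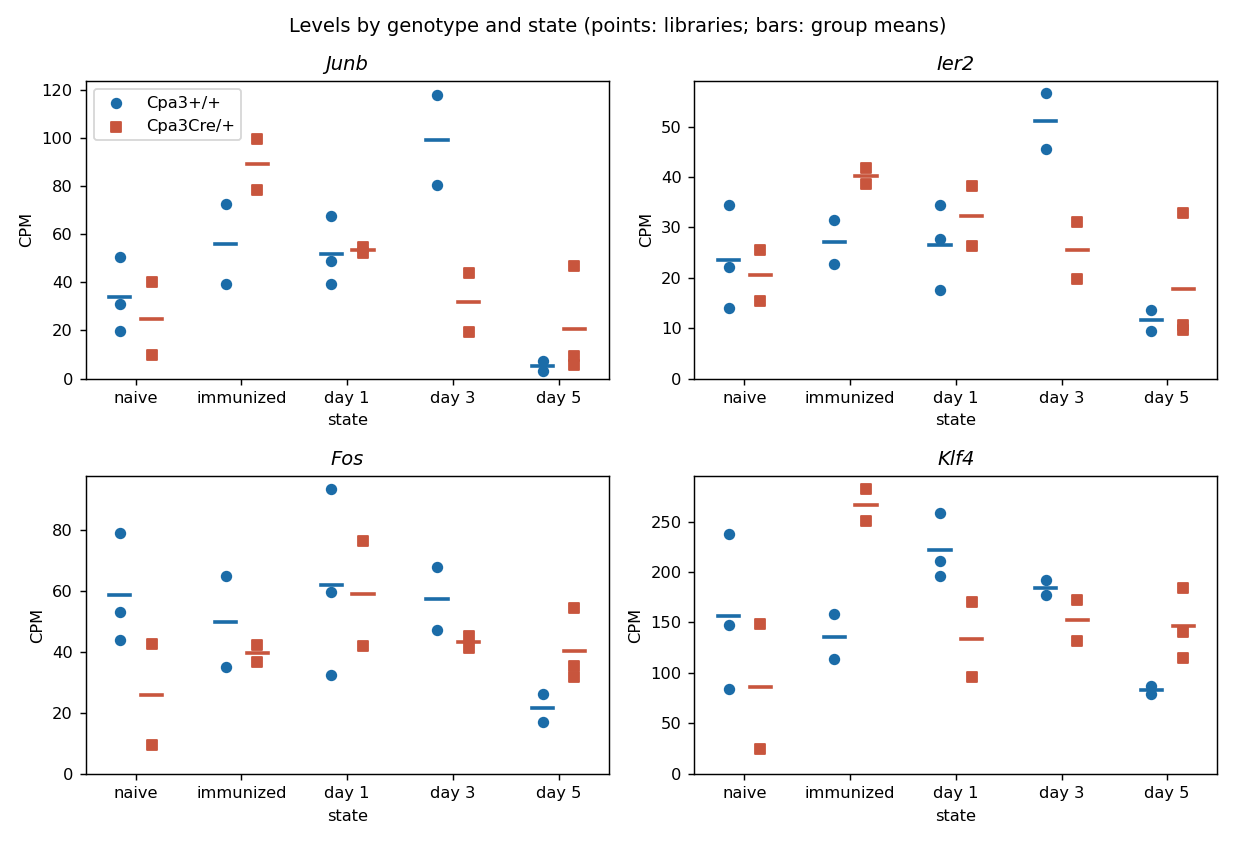
CPM of Junb, Ier2, Fos and Klf4 in each library (points) and group mean (bars), by state, for Cpa3+/+ (circles) and Cpa3Cre/+ (squares) mice. Junb and Ier2 are low on day 5 in all libraries but 1, Fos is low on day 5 in Cpa3+/+ libraries (16.9 and 26.1 CPM), and Klf4 has its highest group mean in immunized Cpa3Cre/+ mice (251 and 282 CPM).

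Ier2 and Jund gave smaller differences of the same sign on day 5. Ier2 was at 22.7 and 31.5 CPM in immunized Cpa3+/+ libraries and 38.7 and 41.8 CPM in immunized Cpa3Cre/+ libraries. It was at 9.5 and 13.6 CPM on day 5 in Cpa3+/+ libraries and at 10.6, 9.69 and 32.8 CPM in Cpa3Cre/+ libraries. The same Cpa3Cre/+ replicate 3 was again the library inside the immunized range. The averaged difference was -1.24 (SE 0.36, adjusted p 0.0781). Jund, the Jun family member that most cells carry without stimulation, was at 52.9 and 88.9 CPM (Cpa3+/+) and 123 and 105 CPM (Cpa3Cre/+) in immunized libraries. On day 5 it was at 26.2 and 48.4 CPM and at 40.1, 33.4 and 88.7 CPM. Its averaged difference was -0.99 (SE 0.33, adjusted p 0.127), and its groups overlapped through 1 day 5 library as well.

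The other 7 members differed by between -0.69 and 0.09 on day 5, none past the threshold. Jun differed by -0.57 (SE 0.23, adjusted p 0.202), Klf4 by -0.69 (SE 0.36), Fos by -0.56 (SE 0.38), Zfp36 by -0.47 (SE 0.28) and Egr1 by -0.43 (SE 0.29). Atf3 (0.04, SE 0.43) and Fosb (0.09, SE 0.57) were nearest to 0. At an unadjusted p under 0.05, 4 members were lower (Jun, Junb, Jund, Ier2), where 8.77% of all genes were, and none was higher. The median of the 10 differences was -0.57, beside 0.02 for all genes tested.

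Fos, the partner of Jun in AP-1, gave unlike values in the genotypes on day 5. Its level in Cpa3+/+ libraries was 35.1 and 64.9 CPM when immunized and 26.1 and 16.9 CPM on day 5, a difference of -1.22 (SE 0.56, adjusted p 0.52). In Cpa3Cre/+ libraries it was 36.8 and 42.4 CPM when immunized and 54.3, 35.3 and 31.8 CPM on day 5 (0.09, SE 0.53, adjusted p 0.99). The test of that contrast between genotypes gave 1.31 (SE 0.78, adjusted p 1), which missed the threshold.

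Junb, Jund and Ier2 are the members richest in G and C. The longest annotated transcript of Jund is 67.15% GC, that of Junb 62.58% and that of Ier2 60.91%, at the 99.8th, 98.9th and 97.6th percentile of genes tested. The other 7 lie between 51.9% (Fos) and 57.31% (Egr1), against a median of 49.64% over genes tested. Over all genes, the day 5 difference went with GC content: its median was 0.20 in the decile of genes lowest in GC and -0.55 in the highest decile, which held 159 of the 238 genes called lower and also Junb, Jund and Ier2. Jund (-0.99) and Ier2 (-1.24) lay nearer to that decile's median than Junb (-2.78) did.

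**Figure D3:**
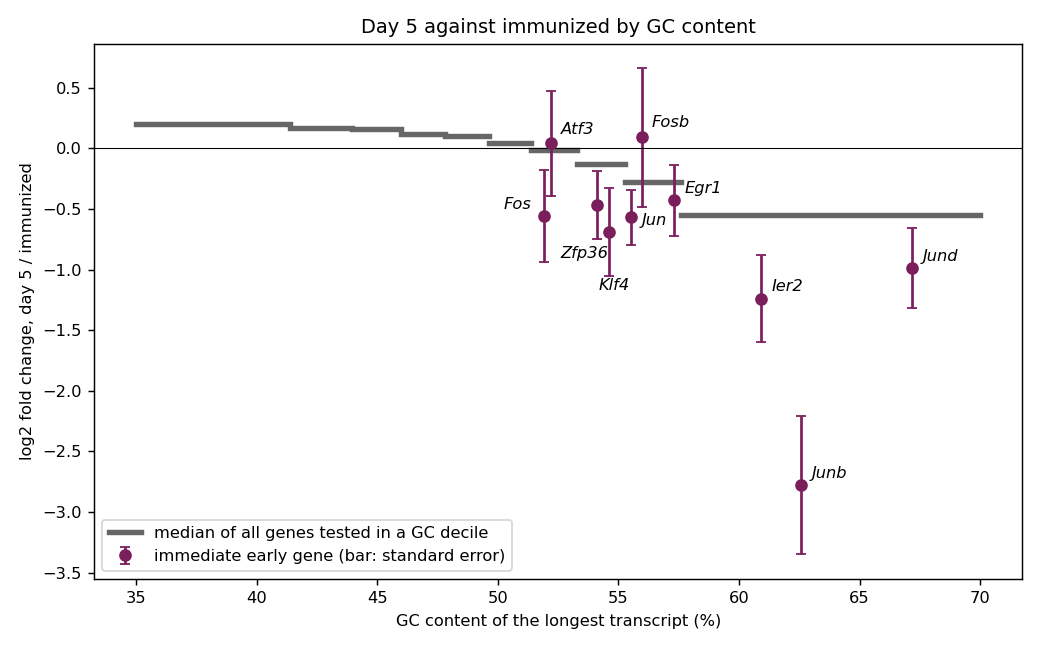
Log2 difference between day 5 and immunized libraries, averaged over genotypes, against GC content of the longest transcript. Grey steps give the median of all genes tested in each decile of GC content (the outer steps are drawn from 35% and to 70%), from 0.20 to -0.55, and points give the 10 genes with their standard errors; Junb lies farthest below the step at its GC content.

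A GC index was taken for each library as the mean log2 deviation of the GC-richest decile of genes minus that of the GC-poorest decile, with the 10 members left out. It ran from -1.09 in day 5 Cpa3+/+ replicate 1 to 0.62 in day 3 Cpa3+/+ replicate 2, the same libraries that were lowest and highest for Junb, Jund and Ier2. Day 5 libraries had -1.09, -0.35, -0.61, -0.98 and 0.23, and the last of these was Cpa3Cre/+ replicate 3, the library with Junb inside the immunized range. Immunized libraries had -0.09, 0.12, 0.31 and 0.29. Across the 23 libraries, which share groups and depth, Pearson's r with the index was 0.95 for Ier2 (Spearman's rho 0.95), 0.91 for Junb (0.89) and 0.89 for Jund (0.88). Without the 2 libraries farthest from the median index these were 0.95, 0.84 and 0.86, and within groups they were 0.92, 0.89 and 0.89. Jun had 0.61, Zfp36 0.53, and the remaining 5 members between 0.02 and 0.35.

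A GC content offset for each library, a step chosen after seeing the data, was taken from the median deviations of 20 bins of genes. It is held level above the middle of the top bin, where Junb and Jund lie at the 98.9th and 99.8th percentile. Whether it removes their whole dependence on GC content was not tested. With this offset, Junb still fell by 2.24 on day 5 (SE 0.43, adjusted p 0.0293). The number of all genes called went from 334 to 61, or 0.354%. Ier2 moved to -0.64 (SE 0.23, adjusted p 0.266), Jund to -0.36 (SE 0.21, adjusted p 0.52) and Jun to -0.36 (SE 0.22, adjusted p 0.53). The SD of log2 CPM over libraries went from 0.67 to 0.39 for Jund, from 0.73 to 0.40 for Ier2 and from 1.40 to 1.08 for Junb. It moved by at most 0.07 for the other 7.

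**Figure D4:**
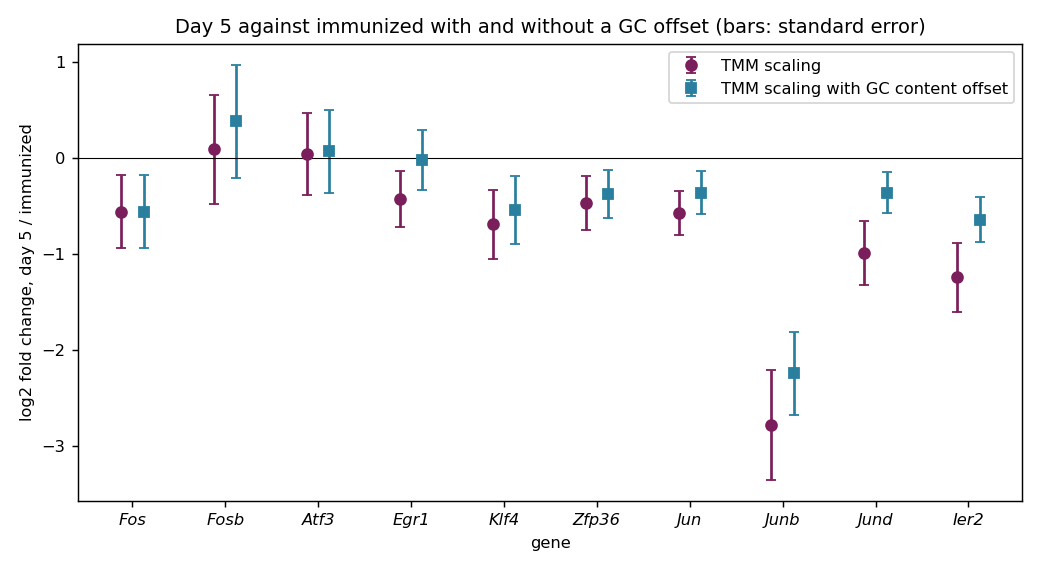
Log2 difference between day 5 and immunized libraries for each gene, averaged over genotypes, with TMM scaling (circles) and with a GC content offset added (squares); bars are standard errors. Junb stays lowest (-2.78 and -2.24), while Ier2 and Jund move towards 0.

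Junb, Jund and Ier2 moved together over the whole series. The r between libraries was 0.94 for Junb and Ier2, 0.94 for Jund and Ier2 and 0.89 for Junb and Jund, against a median of 0.52 over the 45 pairs of members. After the GC offset these were 0.87, 0.79 and 0.70. Klf4 and Zfp36 formed another pair at 0.89, and 0.88 after the offset. Fosb and Atf3 had 0.74 and Fos and Atf3 0.69, and after the offset these were 0.72 and 0.68. Without naive Cpa3Cre/+ replicate 1, and with no offset, r was 0.48 for Fos and Atf3 and 0.77 for Klf4 and Zfp36. Leaving out any 1 library, Fosb and Atf3 kept 0.67 to 0.78. Egr1 reached at most 0.19 with any other member, and its r of -0.34 with Klf4 was the lowest of any pair. All of these are descriptions over libraries that share groups and are given without a test.

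Over all 23 libraries, Klf4 and Zfp36 had a higher Pearson's r with the summed enterocyte markers than with the GC index. So did Fos, Fosb, Jun and Atf3, but for Fos and Jun the order did not hold in every form. For Klf4, r with the log2 enterocyte sum was 0.93 (rho 0.91), 0.86 without the 2 farthest libraries and 0.91 within groups. For Zfp36 it was 0.88 (rho 0.78), 0.69 and 0.81, and for Jun 0.74 (rho 0.70), 0.54 and 0.80. Fos had 0.62, Atf3 0.59 and Fosb 0.32, which went to 0.20, 0.28 and 0.09 without the 2 farthest libraries. Without the 2 libraries farthest in GC index, r with that index was 0.30 for Fos and 0.56 for Jun, above their enterocyte values. For Klf4 (0.27), Zfp36 (0.39), Atf3 (0.10) and Fosb (0.06) it was below them. By rank, Fos had a rho of 0.22 with the enterocyte sum and 0.28 with the GC index. In naive Cpa3Cre/+ replicate 1, where the enterocyte sum was 7400 CPM, Klf4 was at 24.4 CPM and Zfp36 at 46.4 CPM, against 78.6 to 282 CPM and 67.6 to 283 CPM in the other 22 libraries. Immunized libraries had enterocyte sums of 38300 and 35600 CPM (Cpa3+/+) and 52600 and 67300 CPM (Cpa3Cre/+), and day 5 libraries 17300 and 20300 CPM and 34500, 32100 and 85600 CPM. With the log2 sum as a covariate, also chosen after seeing the data, the day 5 difference of Klf4 was -0.23 (SE 0.19), that of Zfp36 -0.21 (SE 0.19) and that of Junb -2.57 (SE 0.48, adjusted p 0.0102), where 5.47% of all genes were called. The part of these markers in the members' levels was not tested further. Egr1 had the opposite sign, -0.39 with the enterocyte sum and 0.56 with the smooth muscle sum, and the latter was 0.39 without the 2 farthest libraries.

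**Figure D5:**
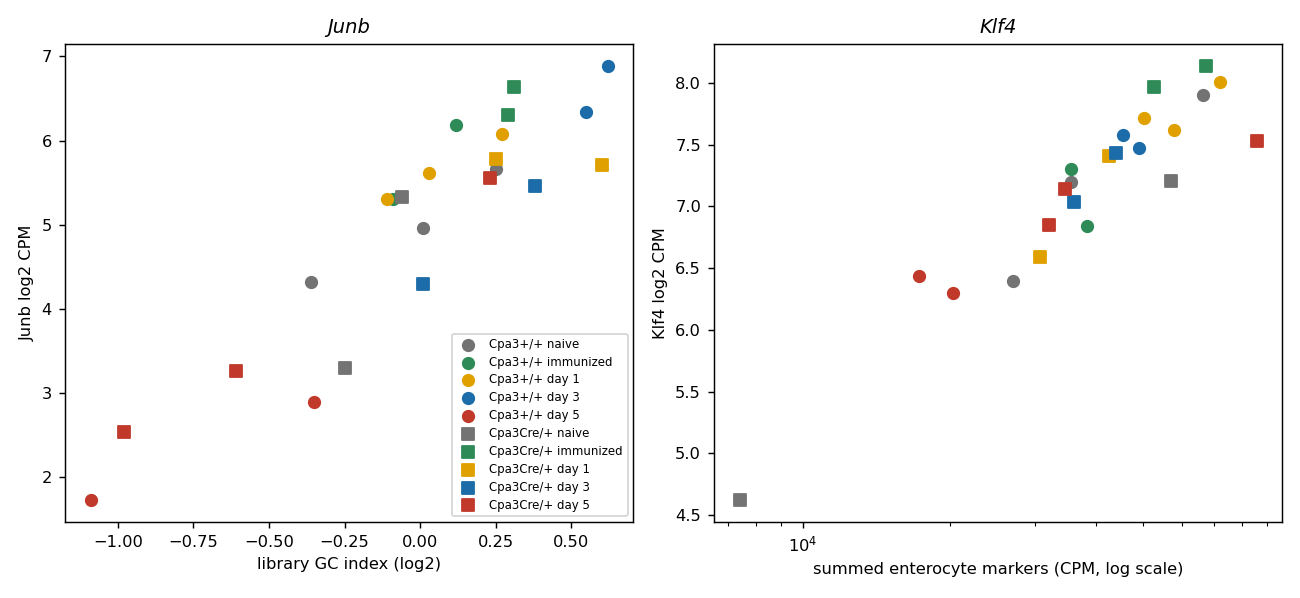
Left, Junb log2 CPM against the library GC index; right, Klf4 log2 CPM against the summed enterocyte markers on a log scale, for the 23 libraries coloured by state (circles Cpa3+/+, squares Cpa3Cre/+). Day 5 libraries other than Cpa3Cre/+ replicate 3 lie at the lower left for Junb, and naive Cpa3Cre/+ replicate 1 lies alone at the lower left for Klf4.

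Averaged over the 5 states, differences of Cpa3Cre/+ from Cpa3+/+ libraries ran from -0.26 for Fos (SE 0.27) to 0.15 for Junb (SE 0.38), and 0 of 10 were called by edgeR or by DESeq2, where edgeR called 0.029% of all genes. None reached an unadjusted p of 0.05, where 1.12% of all genes did. Beside this and the later counts of 0 by DESeq2, its own share of all genes called is not given here. That share can be larger than edgeR's: for day 5 against immunized it was 5.78%, against 1.94% by edgeR. Junb ranged from 3.14 to 118 CPM in Cpa3+/+ libraries (median 44.1) and from 5.64 to 99.8 CPM in Cpa3Cre/+ libraries (median 43.9). Fos ranged from 16.9 to 93.5 CPM (median 50.2) and from 9.36 to 76.3 CPM (median 42). The ranges of all 10 genes overlapped.

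Within single states, edgeR and DESeq2 called 0 of 10 members between genotypes, and edgeR called 0% of all genes in each. On day 3, Jun was at 69.8 and 65.1 CPM in Cpa3+/+ libraries and 43.8 and 34.2 CPM in Cpa3Cre/+ libraries (-0.88, SE 0.35), Jund at 130 and 161 against 81.3 and 52.3 CPM (-1.15, SE 0.50), and Junb at 80.6 and 118 against 43.9 and 19.4 CPM (-1.63, SE 0.80). For each of these genes both Cpa3+/+ libraries lay above both Cpa3Cre/+ libraries, as they did for 6 of 10 members and for 19.4% of all genes tested. All adjusted p were 1, and at an unadjusted p under 0.05 Jun and Jund were lower, 2 of 10, where 1.20% of all genes were. Fos was at 9.36 and 42.5 CPM in naive Cpa3Cre/+ libraries and at 44, 79.1 and 53.2 CPM in naive Cpa3+/+ libraries, a difference of -1.24 (SE 0.56, unadjusted p 0.0384, adjusted p 0.9), where 1.22% of all genes were lower at that level. Without naive Cpa3Cre/+ replicate 1, the library with few enterocyte markers, it was -0.28, and without replicate 2 it was -2.85. On day 5 the genotypes differed for Junb by 1.96 (SE 0.78, unadjusted p 0.0223, adjusted p 0.524), where 5.69% were higher. Without day 5 Cpa3Cre/+ replicate 3 it was 0.51, and with the enterocyte covariate 0.55 (SE 0.76). No member reached an unadjusted p of 0.05 in immunized (0.951% of all genes) or day 1 libraries (7.39%).

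The day 3 response was the contrast in which the genotypes differed most for the Jun family. From immunized to day 3, Jun differed by 0.89 (SE 0.34) in Cpa3+/+ mice and by -0.47 (SE 0.33) in Cpa3Cre/+ mice, Jund by 1.04 (SE 0.48) and -0.76 (SE 0.48), Junb by 0.83 (SE 0.76) and -1.51 (SE 0.79), and Ier2 by 0.92 (SE 0.51) and -0.67 (SE 0.51). The tests of these differences of response gave -1.36 (SE 0.47), -1.80 (SE 0.68), -2.34 (SE 1.09) and -1.59 (SE 0.72), each with an adjusted p of 1. All 4 were under an unadjusted p of 0.05, and no member was higher at that level, where 1.04% of all genes were lower. By decile of GC content, the median of the same contrast ran from 0.24 to -0.45, with the highest decile again holding Junb, Jund and Ier2, and the part of GC content in it was not tested. With the GC offset it was -1.19 (SE 0.44) for Jun, -1.29 (SE 0.43) for Jund, -1.84 (SE 0.83) for Junb and -1.07 (SE 0.46) for Ier2.

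Immunization without challenge gave no call among members. Against naive libraries the averaged differences ran from -0.11 for Egr1 to 1.28 for Junb (SE 0.53, adjusted p 0.408), with a median of 0.57 beside -0.03 for all genes. Neither edgeR nor DESeq2 called any of the 10, and edgeR called 0% of all genes. At an unadjusted p under 0.05, Jun, Junb, Klf4 and Zfp36 were higher, where 3.93% of genes were. Within Cpa3+/+ mice the median was 0.12. Within Cpa3Cre/+ mice it was 1.01, with Junb at 1.83 (SE 0.80), Klf4 at 1.81 (SE 0.56), Zfp36 at 1.30 (SE 0.42), Jun at 1.06 (SE 0.34) and Jund at 1.06 (SE 0.48), the 5 members under an unadjusted p of 0.05, where 4.50% of genes were higher. The naive Cpa3Cre/+ group is 2 libraries, and 1 of them is replicate 1 with few enterocyte markers. Without that library Klf4 was at 0.87, Junb at 0.95 and Jund at 0.54. Without the other naive library they were at 3.50, 3.57 and 1.85, and Fos, Jun, Junb, Klf4 and Zfp36 were then called, where 11.1% of all genes were. In that fit the naive group is the enterocyte-poor library alone, which is assumed to vary like the libraries of other groups.

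On day 1 of challenge, edgeR and DESeq2 called 0 of 10 members and edgeR called 0% of all genes. No member reached an unadjusted p of 0.05 in Cpa3+/+ mice, in Cpa3Cre/+ mice or averaged, where 5.37%, 2.12% and 3.16% of all genes did. Fosb, a Fos family subunit that lingers after repeated stimulation through its truncated form, was at 6.15, 1.30 and 6.10 CPM in the Cpa3+/+ libraries, against 1.80 and 1.38 CPM when immunized (1.51, SE 0.77, adjusted p 0.847). Atf3 was at 12.4, 7.18 and 35.2 CPM against 8.49 and 7.70 CPM (1.17, SE 0.58, adjusted p 0.847). For both genes 2 of the 3 day 1 libraries lay above both immunized libraries, and replicate 2 lay below them. Without replicate 3 the Atf3 difference was 0.27. In Cpa3Cre/+ mice Fosb differed by 0.39 (SE 0.83) and Atf3 by 0.16 (SE 0.61). Klf4 differed by 0.71 (SE 0.49) in Cpa3+/+ and -0.95 (SE 0.54) in Cpa3Cre/+ mice, and the test between those responses gave -1.66 (SE 0.73, unadjusted p 0.0358, adjusted p 0.845). It was the only member lower at that level, 1 of 10, where 2.2% of all genes were. The enterocyte sums were 58000, 71900 and 50200 CPM in day 1 Cpa3+/+ and 42500 and 30700 CPM in day 1 Cpa3Cre/+ libraries, above and below those of the immunized libraries of the same genotype, and with them as a covariate the value was -0.58 (SE 0.37, unadjusted p 0.138).

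Day 1 Cpa3+/+ replicate 2 had its own profile. It had the highest Zfp36 of all libraries, 283 CPM, with Klf4 at 258 CPM, but the lowest Fos (32.6 CPM), Fosb and Atf3 of its group. It was also the highest library for the glucocorticoid-induced genes Fkbp5 (951 CPM, next highest 139), Sgk1 (1870 CPM, next 331), Tsc22d3 (342 CPM, next 176) and Zbtb16 (155 CPM, next 11.1). Among immediate early genes outside the 10, it was the highest for Errfi1, an EGF receptor inhibitor (455 CPM, next 114), Gadd45b (72.3 CPM, next 19.8) and Csrnp1 (27.1 CPM, next 6.92).

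Day 3, averaged over genotypes, gave differences from -0.34 for Junb to 0.67 for Fosb (SE 0.58), with 0 of 10 called by edgeR or DESeq2, 0% of all genes called by edgeR and no member under an unadjusted p of 0.05, where 9.58% of all genes were. Egr1 was at 11.9 and 22.7 CPM in Cpa3+/+ libraries and 25.3 and 9.66 CPM in Cpa3Cre/+ libraries, and differed from immunized by 0.49 (SE 0.30, adjusted p 0.583). In the test for any difference among the 10 groups, edgeR called 0 of 10 members and 0.0928% of all genes, DESeq2 called Jun and Junb and 5.51% of all genes, and 4 members had an unadjusted p under 0.05, where 10.8% of all genes did. Pooled over genotypes, no member had libraries that did not overlap, in immunized against naive or in any challenge day against immunized. For day 5 against immunized, 3.71% of all genes were lower and 5.38% higher without overlap. These shares are not given here for the other comparisons.

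Other genes of the pathway were read from fixed lists, chosen with earlier results of these data known. Of 19 upstream factors and kinases, all tested, 2 fell and none rose on day 5 against immunized. Of all genes tested, 1.38% fell and 0.557% rose past the same threshold. The list median was 0.03 beside 0.02 for all genes. Srf, the serum response factor that binds CArG boxes in Fos and Egr1, ranged from 32.2 to 35.7 CPM in immunized and from 11.6 to 30.6 CPM in day 5 libraries, without overlap, and fell by 1.00 (SE 0.24, adjusted p 0.0375). Mrtfa, its actin-regulated coactivator, ranged from 28.5 to 31.8 CPM and from 13.8 to 23.1 CPM, also without overlap, and fell by 0.80 (SE 0.17, adjusted p 0.0216). Their transcripts are 64.41% and 58.63% GC, in the highest decile, and with the GC offset the differences were -0.37 (adjusted p 0.283) and -0.33 (adjusted p 0.246), so neither call held. Leaving out 1 library at a time, 0 to 4 of the 19 were called.

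Of 8 heat shock genes, 1 rose on day 5, where 0.557% of all genes did, and none fell, where 1.38% did. All 8 differences were above 0, and the list median was 0.84 beside 0.02 for all genes. Hspe1, the mitochondrial chaperonin partner, ranged from 65.2 to 80.1 CPM in immunized and from 107 to 154 CPM in day 5 libraries, without overlap (0.78, SE 0.16, adjusted p 0.0208). With the GC offset it was 0.63 (adjusted p 0.129). Leaving out 1 library at a time, 0 to 6 of the 8 were called.

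None of the 14 tested of 16 other immediate early transcription factors was called on day 5 (median -0.19). At an unadjusted p under 0.05, 3 were lower, where 8.77% of all genes were, and none was higher. Csrnp1 differed by -0.99 (SE 0.46, adjusted p 0.27) and Arc by -1.54 (SE 0.60, adjusted p 0.187), both under that level. The nuclear receptor Nr4a1 differed by -0.74 (SE 0.42, unadjusted p 0.0971, adjusted p 0.397) and Maff by -0.18 (SE 0.25, adjusted p 0.788). None of the 18 tested of 21 other regulators and secreted factors was called (median -0.07). At the unadjusted level 4 were lower and none was higher. The growth arrest genes Gadd45b and Gadd45g differed by -1.08 (SE 0.47, adjusted p 0.235) and -1.09 (SE 0.37, adjusted p 0.132). Ccn1 differed by -0.04 (SE 0.22) and Errfi1 by -0.11 (SE 0.40). Of 14 feedback inhibitors 0 were called (median -0.20), and at the unadjusted level 2 were lower and none was higher. Dusp6 differed by -0.09 (SE 0.30), Dusp10 by -0.29 (SE 0.24) and Tnfaip3 by 0.06 (SE 0.19). Socs3, which blocks STAT3 signalling, was nearest at -2.07 (SE 0.54, adjusted p 0.0586), with 30.7 to 244 CPM in immunized and 11 to 34.7 CPM in day 5 libraries. The 244 CPM was immunized Cpa3Cre/+ replicate 1, and the next highest library of all had 64.9 CPM. Of 11 stress and glucocorticoid genes, 0 were called (median 0.21), and at the unadjusted level 2 were lower and none was higher. By DESeq2, Socs3 had an adjusted p of 0.00229. Averaged over states, none of these lists held a gene called between genotypes.

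Genes with the profile most like the mean of the 10 were, by r over 23 libraries, Myh14 (0.93), Tymp (0.90), Osgin1 (0.90), Prkcsh (0.89), Espn (0.89), Sh3gl1 (0.89), Arhgef16 (0.89), Klc4 (0.88), Hgs (0.88) and Epn1 (0.88). Their transcripts are 51.83% to 62.46% GC. None is an immediate early gene of the lists. For Junb, the genes outside the set most like it were Map3k11, Nr1h2 and Gga1 (each 0.98), at 61.29%, 60.58% and 62.16% GC. For Ier2 they were Sf3b5, Romo1 and Lypla2 (each 0.98), at 45.48%, 60.63% and 61.44% GC. The highest r of Junb with another member was 0.94, with Ier2.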

How the data were processed

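Counts per gene were deposited as raw whole-number counts for 23 libraries. Per the submitters' processing notes, the tools were STAR and featureCounts (Subread 1.5.1) with the mouse build mm10 (GRCm38). Per the labels' protocols, libraries came from a stranded TruSeq kit, and the strand setting of the counting is not given in the sources used here, so reads of overlapping antisense genes may be shared. Symbols, positions and transcript GC content came from GENCODE vM21. edgeR 4.0.16 (R 4.3.3) was used with TMM scaling, its filter on low counts by group, 10 group means and a sex covariate in a robust quasi-likelihood test, with 12 residual degrees of freedom. P-values were adjusted by Benjamini-Hochberg over 17236 genes, with a threshold of 0.05. Adjusted p in the text come from this test unless DESeq2 1.42.0 is named. CPM use TMM-scaled library sizes, log2 CPM a prior count of 2. SE are standard errors of log2 differences. The fit was also run on simulated counts with known changes. Those counts had the same spread for every gene and no trend with GC content. They cannot show how the fit performs with the unequal spread and GC trend of these libraries.

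The alternatives were DESeq2, its size factors, no filter, no sex covariate, female libraries, the replicate number as a block and leaving out each library. Added after seeing the data were a GC content offset (20 bins), an enterocyte covariate and leaving out 2 sets of 3 libraries. Members, lists and tests were chosen with earlier results of these data known. All members are named. From each list, genes past the threshold in any comparison are named, otherwise up to 4 with the smallest unadjusted p over the 10 groups. Also named are the 10 genes most like the members' mean and, chosen after seeing the data, those most like Junb and Ier2. Libraries are named where they hold the highest value of 3 or more members, lie highest or lowest in their group by the members' mean, or decide a value.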

Additional observations from a re-analysis of the deposited data

How the results depend on the processing

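The day 5 fall of Junb kept its sign in all 33 alternatives run, from -3.64 to -2.24, and its call in 26; besides the 5 single libraries named with it, it was lost with female libraries only (-2.69, adjusted p 0.0544) and without the 3 libraries highest in follicle markers (-3.15, 0.114). Members called on day 5 averaged over genotypes numbered 2 by DESeq2 (Junb, Ier2; 5.78% of all genes), 3 with no filter (Junb, Ier2, Jund; 2.83%), 6 without 3 outlying libraries (day 1 Cpa3+/+ replicate 2, naive Cpa3Cre/+ replicate 1, day 5 Cpa3Cre/+ replicate 3; Jun, Klf4 and Zfp36 were added; 18.6% of all genes), 0 with females only and 0 without the follicle-rich libraries; leaving out 1 library gave 0 to 3. Within genotypes on day 5, members called were 3 in each with no filter (0.957% and 1.06% of all genes), 1 in Cpa3+/+ by DESeq2 (1.14%), 1 (Cpa3+/+, 5.32%) and 3 (Cpa3Cre/+, 8.34%) without the 3 outlying, and 1 (0.31%) and 2 (1.91%) without day 5 Cpa3Cre/+ replicate 3. Immunized against naive, where female libraries leave 1 naive Cpa3Cre/+ library, gave 3 with females only (5.46% of all genes) and 2 with no filter (1.8%) averaged over genotypes, and 3 (6.88%) and 5 (2.42%) within Cpa3Cre/+; without naive Cpa3Cre/+ replicate 2 it gave 2 (3.45%) and 5 (11.1%). With no filter, 10 members and 7.86% of all genes passed the test over all groups, and there were also 2 calls for the day 3 difference of response (0.215% of all genes), and 1 each for that of immunization (0.402%), for day 3 in Cpa3Cre/+ (0.574%) and for genotype when naive (0.518%), on day 3 (0.153%) and on day 5 (1.45%). Over all groups DESeq2 called 2 (5.51%), the fit without the 3 outlying 3 (7.18%), and without day 5 Cpa3Cre/+ replicate 3 it was 1 (0.942%). All genes called on day 5 (334) numbered 957 by DESeq2, 943 with the enterocyte covariate, 906 with no filter, 82 in females, 61 with the GC offset, 3294 without the 3 outlying, 34 without the follicle-rich and 28 to 1305 leaving out 1 library. Heat shock genes (1 called) numbered 7 without the 3 outlying, 5 by DESeq2, 5 with no filter, 3 with the enterocyte covariate, and 0 in females, with the GC offset or without the follicle-rich, and 0 to 6 leaving out 1 library. Upstream genes (2 called) numbered 5 without the 3 outlying, 0 in those last 3 settings and 0 to 4 leaving out 1 library. Signs turned for Atf3 on day 5 (0.04) in females (-0.20), without the sex covariate (-0.024) and leaving out 1 library (-0.20 to 0.50), for Fosb (0.09) in females (-0.25) and leaving out 1 library (-0.25 to 0.90), for Junb between genotypes (0.15) in females (-0.18) and leaving out 1 library (-0.18 to 0.49), for Fos between genotypes (-0.26) leaving out 1 library (-0.52 to 0.044), and for Jun in Cpa3Cre/+ on day 5 (-0.60) without the follicle-rich (0.23) or leaving out 1 library (-0.90 to 0.021). Same-numbered libraries showed no common deviation: the median r of their deviations was -0.01 (-0.31 to 0.56), beside 0 for other pairs. With most groups at 2 libraries, this cannot show that no samples were paired. With the replicate block 149 genes, 1 upstream gene and 0 heat shock genes were called, Junb was -3.04 (adjusted p 0.0391) and Atf3 was -0.079. The cause of these changes was not tested. Depth limits Fosb most, with 0.488 CPM in its lowest library.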
